A study of Mus musculus and Rattus norvegicus with 53 samples.

Results

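The genes described here were 42 mouse genes of the MYC network and of ribosome biogenesis, out of 24016 gene symbols in the mouse count data. They were taken by symbol: 7 genes of the MYC-MAX transcription factor network, 31 genes that make, modify or assemble ribosomal RNA, and 4 other well known MYC targets (Odc1, Srm, Cad and Eif4e). All 42 symbols were found. The rule used no measured value, but the genes were chosen with earlier results of these data known. Schwann cells (SCs) were isolated from the sciatic nerve of mice that carried a Cre recombinase active in the SC lineage together with a tdTomato reporter in the Rosa26 locus. tdTomato+ cells were sorted from the uninjured contralateral nerve (intact SCs, iSCs), and, after the nerve had been cut, from the distal stump (dSCs) and from the bridge, the new tissue that forms between both stumps (bSCs). Animals of both sexes, aged 6 to 8 weeks, were used, and every group carried the same transgenes. The reporter marks any cell in which the Cre was ever active, so the sorted cells were not defined by their current state. In the pooled experiment, the nerves of 3 mice were combined in each library and 4 libraries per group were made of iSCs and, 6 days after the cut, of dSCs and bSCs. In the single-nerve experiment, each library came from 1 nerve. It held 5 libraries of iSCs and triplicates of dSCs on days 1 and 2 and every other day from 4 to 10 after the cut, and triplicates of bSCs on the days from 4 onward.

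MYC is a transcription factor that binds DNA together with MAX, mostly at E-boxes, and raises the expression of genes for cell growth. MAX also pairs with MXD1, MXD4, MXI1 and MNT, which occupy the same sites and repress. Ribosome biogenesis is among the best known MYC outputs: RNA polymerase I transcribes the ribosomal RNA precursor in the nucleolus, small nucleolar RNA-protein particles modify it, and assembly factors cut, fold and package it into the small and large subunits. SCs that lose contact with axons dedifferentiate, re-enter the cell cycle and form the cords along which axons regrow, and both steps need new protein.

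Gene counts were between 11435463 and 22617054 per pooled library and between 9240883 and 22426128 per single-nerve library. Of the 35 single-nerve libraries, 4 had a count on 10042 to 11138 genes and the others on at least 11983. In the pooled nerves, 11735 to 12606 genes had a count in bSCs, 12432 to 14715 in dSCs and 13600 to 14987 in iSCs, and the share of reads assigned to no gene was 53.8 to 55.3% in bSCs, 56.6 to 60.5% in dSCs and 57.6 to 59.5% in iSCs. The part of these differences in the pooled results was not tested. The 4 single-nerve libraries with the fewest genes were iSC replicates 0 and 1, dSC day 1 replicate 1 and dSC day 2 replicate 0. They are called shallow below, and some of the results that they touch are given with and without them. Every single-nerve comparison with iSCs includes iSC replicates 0 and 1, and values given once include the shallow libraries. Of the 35 genes outside the MYC-MAX network, 6 and 7 had no count in these 2 iSC libraries. The dSC and bSC libraries of day 4 replicate 1, labelled as the same animal, nearly coincided (r = 0.995 over genes, against at most 0.954 in 594 other pairs), so these 2 libraries brought little independent information on the regions. Of the bSC libraries, day 10 replicate 0 carried labels that named different animals and was left out of paired fits. Sox10, which marks the SC lineage, was detected in every library, at 220 to 422 CPM (counts scaled to library size) in pooled iSCs, 69.1 to 182 in dSCs and 63.0 to 219 in bSCs. S100b, another SC marker, was at 159 to 230, 62.0 to 95.4 and 2.70 to 56.6 CPM, with no overlap of the 3 groups. Summed levels of the marker lists also moved with the groups. The 12 proliferation genes summed to 127 to 156 CPM in pooled iSCs, 372 to 554 in dSCs and 1024 to 2313 in bSCs, and the 14 macrophage genes to 270 to 6510, 11047 to 18383 and 2686 to 8679. The 9 fibroblast and perineurial genes summed to 9057 to 49186, 29423 to 43220 and 13292 to 26924. The part of these lists in the results below was not tested. In sorted bulk cells, fewer cells of a type and less RNA per cell cannot be told apart.

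Promoter sequence was held for 35 of the 42 genes (RefSeq, mouse build GRCm38.p6, 250 bases before to 50 bases after a start site), and was searched for the canonical E-box CACGTG, which reads the same on both strands. It was present for 6 of 29 genes outside the MYC-MAX network (20.7%), for 3 of 6 genes of the network (50%) and for 8.09% of all 27025 genes with such a sequence. Of 96 other ribosome biogenesis genes, 18.8% held it, and of 57 genes of cytosolic ribosomal proteins 10.5%. The related motif CACGCG, searched on both strands, was in 8 of the 29 genes (27.6%) and 0 of 6 network genes, against 10.5% of all genes, 34.4% of the other ribosome biogenesis genes and 17.5% of those for ribosomal proteins. These are matches of letters in a short window, not measured binding. Sequences of 4 members are shown because they carry the motif and stand for different roles in the data: Eif4e and Pes1, which were higher in pooled bSCs than in iSCs, Nop2, which rose with Myc across single nerves only when shallow libraries were kept, and Max, the partner of MYC itself. Capitals mark CACGTG. The Eif4e start site at chr3:138527018-138527317 (plus strand) had 2 copies, the first letters of which were 228 and 64 bases before the start. That of Pes1 lay 3 bases after the start (chr11:3963725-3964024, plus strand), that of Nop2 60 bases before it (chr6:125131633-125131932, plus strand), and that of Max 3 bases before it (chr12:76962199-76962498, minus strand).
Eif4e: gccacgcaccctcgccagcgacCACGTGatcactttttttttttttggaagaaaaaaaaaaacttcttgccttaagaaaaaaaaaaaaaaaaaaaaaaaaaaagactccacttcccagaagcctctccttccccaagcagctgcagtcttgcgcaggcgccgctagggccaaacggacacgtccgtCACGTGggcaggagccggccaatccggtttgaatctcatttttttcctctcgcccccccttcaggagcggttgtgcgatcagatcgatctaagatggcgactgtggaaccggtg
Pes1: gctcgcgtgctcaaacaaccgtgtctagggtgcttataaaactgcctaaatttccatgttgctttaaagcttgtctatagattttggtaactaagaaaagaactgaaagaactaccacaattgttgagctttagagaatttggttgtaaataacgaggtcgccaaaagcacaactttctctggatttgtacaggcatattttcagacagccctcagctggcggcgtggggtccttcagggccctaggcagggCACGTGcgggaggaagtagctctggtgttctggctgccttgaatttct
Nop2: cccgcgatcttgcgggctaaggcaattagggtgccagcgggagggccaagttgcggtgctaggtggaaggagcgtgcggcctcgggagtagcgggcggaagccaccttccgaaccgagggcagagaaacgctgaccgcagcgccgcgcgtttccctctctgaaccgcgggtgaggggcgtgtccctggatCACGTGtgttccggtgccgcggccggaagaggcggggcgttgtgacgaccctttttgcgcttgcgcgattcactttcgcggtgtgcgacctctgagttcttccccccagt
Max: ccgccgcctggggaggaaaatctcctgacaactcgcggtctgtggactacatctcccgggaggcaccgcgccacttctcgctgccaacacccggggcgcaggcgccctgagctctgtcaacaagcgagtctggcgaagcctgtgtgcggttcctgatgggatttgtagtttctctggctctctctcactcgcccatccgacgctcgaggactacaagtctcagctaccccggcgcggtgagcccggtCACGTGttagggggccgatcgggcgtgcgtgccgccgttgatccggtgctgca

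The level of Myc itself separated bSCs from dSCs in the pooled nerves, without passing the test. Myc (NCBIM37 chr15:61816946-61821929, plus strand) was at 31.8, 42.7, 26.8 and 27.3 CPM in iSCs (pools 1, 2, 4 and 5), at 12.9, 32.1, 31.9 and 23.9 in dSCs (pools 1, 2, 3 and 5), and at 65.7, 41.5, 82.2 and 68.9 in bSCs (pools 1, 2, 3 and 5). Every bSC library was above every dSC library, whereas 1 bSC library fell within the iSC range. The means were 32.2 ± 7.39 CPM in iSCs, 25.2 ± 9.05 in dSCs and 64.6 ± 17 in bSCs (SD, n = 4 each). On the log2 scale, bSCs exceeded dSCs by 1.36 (95% interval 0.55 to 2.17, adjusted p = 0.0531, edgeR's quasi-likelihood test) and iSCs by 1.00 (0.20 to 1.81, adjusted p = 0.0878). With DESeq2 both differences passed, at adjusted p = 0.00543 and 0.0415, but under the 17 other settings neither did. With the pool number of the labels as a block in edgeR they were 1.41 (adjusted p = 0.118) and 0.82 (adjusted p = 0.337). The difference of dSCs from iSCs was -0.35 (-1.15 to 0.44, adjusted p = 0.774).

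The other network genes had low or scattered counts. Mycn, the paralog of Myc that is used mostly in embryonic tissue, was at 12.4, 4.73, 5.07 and 7.74 CPM in iSCs, had no count in 3 of 4 dSC and 3 of 4 bSC libraries, and reached 2.29 and 2.19 CPM in the other two. Mxd1, a repressive MAX partner, was at 21.8, 23.6, 25.8 and 41.8 CPM in iSCs, at 1.76, 1.01, 2.22 and 6.86 in dSCs and at 0, 11.8, 0 and 6.76 in bSCs. Neither gene overlapped between injured and intact nerves, but neither passed the test, with log2 differences of -3.69 and -3.25 in dSCs (adjusted p = 0.510 and 0.319). Mxi1 (NCBIM37 chr19:53384996-53450300, plus strand), another repressive partner, was at 73.9, 87.6, 82.0 and 13.1 CPM in iSCs and at 9.24, 22.7, 28.1 and 7.46 in bSCs. It was the only one of the 7 network genes that passed a pooled test by edgeR, as a fall by 1.93 on the log2 scale from iSCs to bSCs (adjusted p = 0.0427), and 13 of 18 other settings lost the call. Max spread from 8.23 to 45.3 CPM within iSCs and from 12.5 to 76.2 within bSCs, and its log2 difference between them, 0.64, had an interval of -0.89 to 2.18. Mxd4 and Mnt, both repressive partners as well, differed by -0.61 and -1.12 (adjusted p = 0.404 and 0.637).

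**Figure D1:**
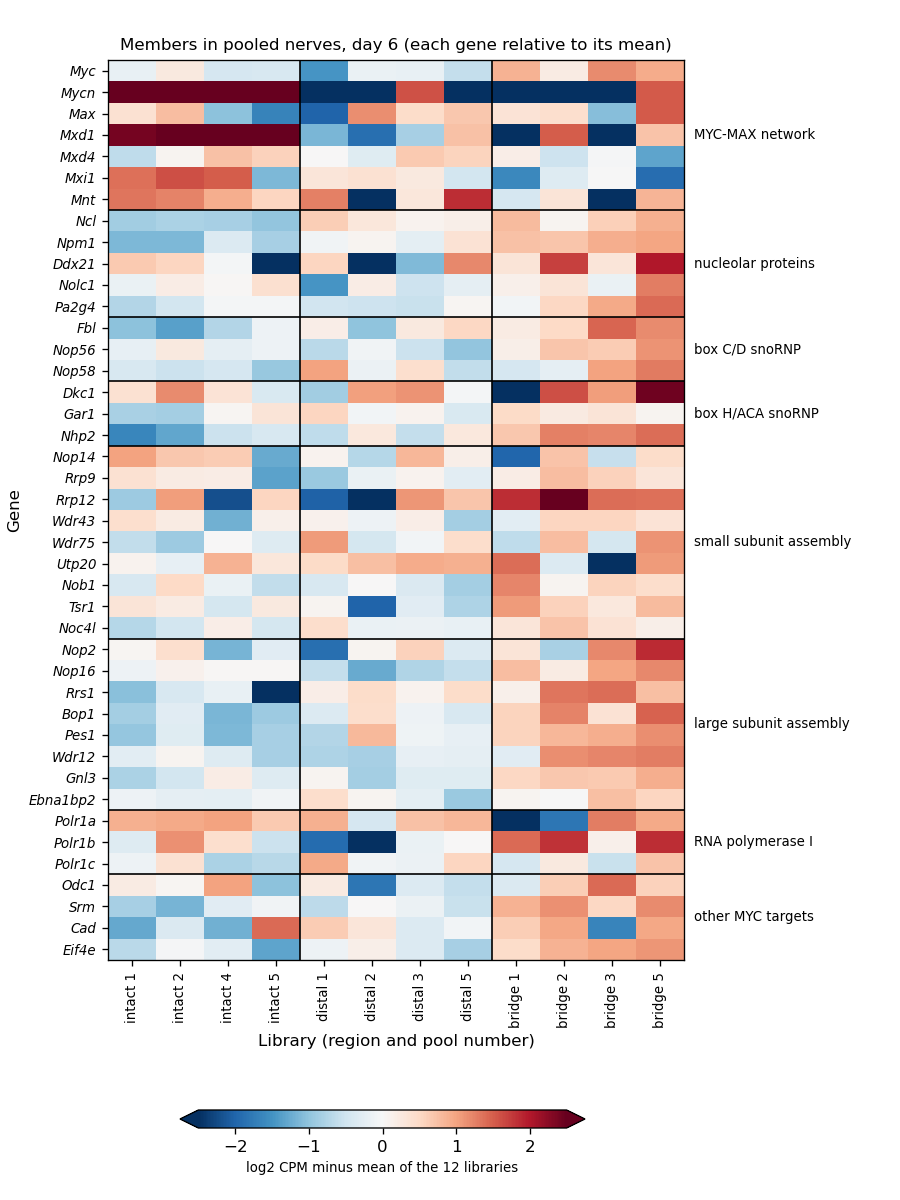
Each row is 1 of the 42 genes, ordered by role, and each column 1 of the 12 pooled libraries, with the colour giving log2 CPM minus the gene's mean over those libraries. Red is above the mean: in the MYC-MAX rows Mycn and Mxd1 are deep red in all 4 iSC libraries, and most of the 35 rows below are red in the bSC columns and blue or pale in the iSC and dSC columns.

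The comparison of bSCs with dSCs asks whether injured SCs differ between the wound, where new tissue forms, and the stump behind it. In the pooled nerves, 5 of the 42 genes were higher in bSCs and none was lower, against 5.43% of 13751 genes tested that passed in either direction, 2.31% as higher and 3.11% as lower. The median log2 difference of the 42 genes was 0.81, with 34 above 0, against -0.07 over all genes tested. Beyond the test, 13 of the 42 genes had every bSC library above every dSC library, where 6.77% of all genes did, and 0 had the reverse, where 8.62% did.

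Nop16, a factor of large subunit assembly (NCBIM37 chr13:54685546-54691451, minus strand), had the clearest difference between the regions. Its levels were 82.3, 56.2, 96.1 and 111 CPM in bSCs and 32.1, 20.2, 28.7 and 32.0 in dSCs, so that the lowest bSC library was well above the highest dSC library. It was higher by 1.61 on the log2 scale (95% interval 0.98 to 2.24, adjusted p = 0.00961) and passed under all 18 other settings. In iSCs it was at 44.4, 52.3, 49.2 and 49.3 CPM, above all dSC and below all bSC libraries, but neither difference from iSCs passed (-0.79 in dSCs, adjusted p = 0.158, and 0.82 in bSCs, adjusted p = 0.0705).

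Nop56, a core protein of the particles that methylate ribosomal RNA (box C/D), had the same order of groups (NCBIM37 chr2:130100166-130105049, plus strand). It was at 114, 166, 160 and 223 CPM in bSCs, at 64.5, 96.2, 70.5 and 51.6 in dSCs and at 89.4, 122, 88.1 and 93.7 in iSCs. The difference between bSCs and dSCs was 1.23 (0.65 to 1.80, adjusted p = 0.0207), and the libraries did not overlap. Srm, the enzyme that makes spermidine (NCBIM37 chr4:147965612-147969102, plus strand), was at 147, 177, 114 and 181 CPM in bSCs and at 50.7, 81.0, 72.5 and 54.8 in dSCs. The difference was 1.26 (0.63 to 1.88, adjusted p = 0.0257), again with no overlap.

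Eif4e and Pa2g4 were near the threshold. Eif4e, which binds the cap of messenger RNA to start translation (NCBIM37 chr3:138189155-138220563, plus strand), was at 233, 312, 337 and 366 CPM in bSCs and at 155, 188, 135 and 95.6 in dSCs, a difference of 1.12 (0.48 to 1.77, adjusted p = 0.0461). Pa2g4, a growth regulator that binds ribosomal RNA (NCBIM37 chr10:127994822-128002990, minus strand), was at 111, 168, 224 and 311 CPM in bSCs and at 82.9, 81.0, 78.7 and 120.2 in dSCs, where the highest dSC library lay above the lowest bSC library. Its difference was 1.17 (0.49 to 1.84, adjusted p = 0.0466). These calls were lost under 13 and 14 of 18 other settings. When the pool number of the labels entered the fit as a block, Nop16 alone of the 42 genes passed (1.59, adjusted p = 0.0465, with 0.705% of all genes passing as higher), while the genes called among all those tested fell from 746 to 236. Leaving out bSC pool 5, dSC pool 1 or dSC pool 5 also left 1 of the 42 genes.

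**Figure D2:**
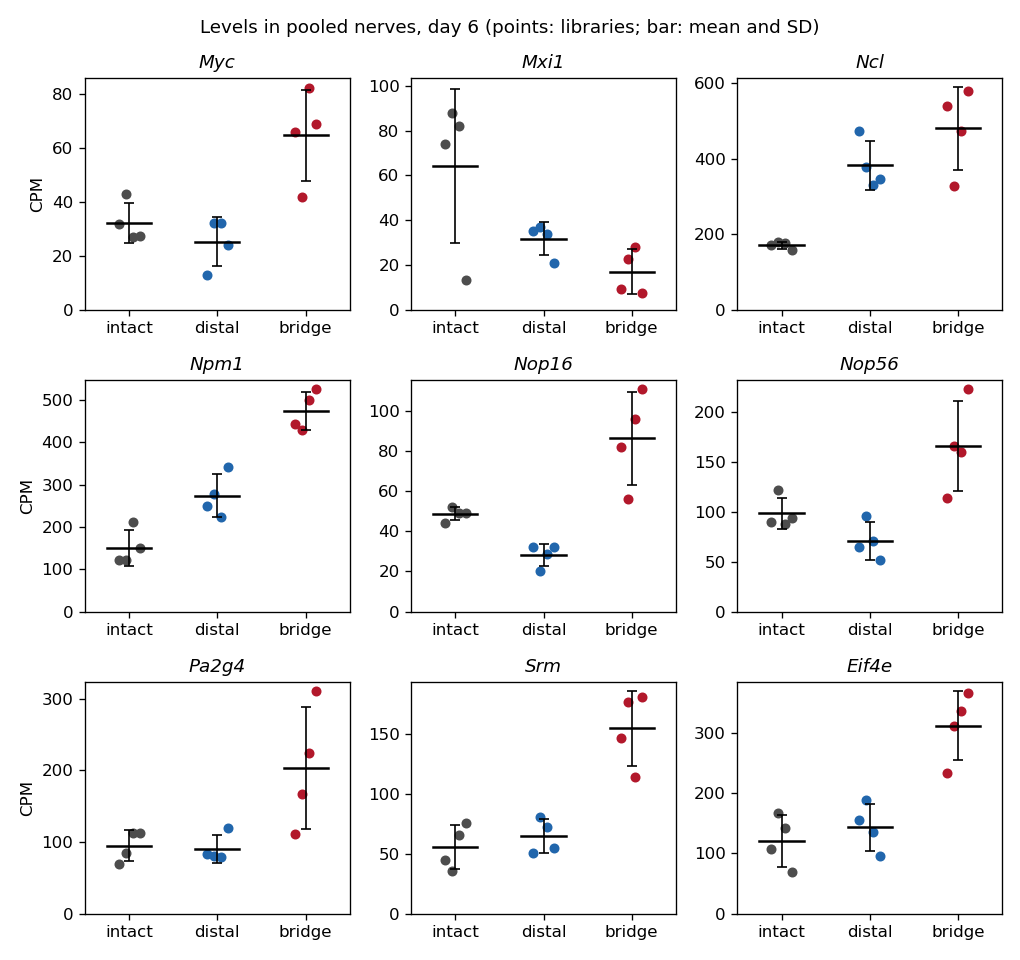
Levels in CPM (linear axes from 0) of 9 genes, with 1 point per pooled library and a line at the group mean with its SD (n = 4). For Nop16 and Nop56 the dSC points lie below the iSC points on average and the bSC points above both, and for Ncl and Npm1 both injured groups lie above iSCs.

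Relative to intact nerves, the 2 injured regions differed in how many of the 42 genes rose. In dSCs 2 were higher than in iSCs and none was lower (5.32% of all genes passed, 2.63% as higher and 2.69% as lower), and the median log2 difference was -0.01, against -0.02 over all genes. In bSCs 11 were higher and Mxi1 was lower (14.7% of all genes passed, 7.24% as higher and 7.46% as lower), and the median was 0.78, with 35 genes above 0, against -0.16 over all genes. Without overlap of the libraries, 3 genes were above iSCs in dSCs (7.56% of all genes) and 3 below (9.41%), and 13 were above in bSCs (10.5%) and 2 below (14.5%). Both comparisons used the same iSC libraries. With the pool number as a block, 1 gene was higher in dSCs (Npm1; 0.887% of all genes) and 7 in bSCs (Eif4e, Ncl, Nhp2, Npm1, Pa2g4, Pes1 and Srm; 3.57% of all genes).

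The genes higher in dSCs were both for abundant nucleolar proteins. Ncl encodes nucleolin, which binds nascent ribosomal RNA (NCBIM37 chr1:88241294-88256030, minus strand). It was at 171, 179, 175 and 157 CPM in iSCs, at 474, 378, 330 and 347 in dSCs and at 540, 327, 473 and 580 in bSCs, so that both injured groups lay above all iSC libraries and overlapped each other. The log2 difference from iSCs was 1.16 in dSCs (0.69 to 1.64, adjusted p = 0.00926) and 1.49 in bSCs (1.01 to 1.97, adjusted p = 0.000882), and bSCs exceeded dSCs by 0.33 (-0.14 to 0.80, adjusted p = 0.433). Npm1, the nucleolar chaperone nucleophosmin (NCBIM37 chr11:33052287-33063206, minus strand), was at 122, 121, 211 and 149 CPM in iSCs, 250, 278, 224 and 343 in dSCs and 443, 428, 499 and 525 in bSCs. Its 3 groups did not overlap. It was higher by 0.86 in dSCs (0.36 to 1.36, adjusted p = 0.0488, a call lost in 13 of 18 other settings) and by 1.65 in bSCs (1.14 to 2.16, adjusted p = 0.000719). Of the other nucleolar proteins, the helicase Ddx21 and the chaperone Nolc1, did not pass in any pooled comparison (bSCs against iSCs 1.24 and 0.38), and Pa2g4 is given with the other factors.

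Among the particles that modify ribosomal RNA, 2 of 6 genes rose from iSCs to bSCs. Nhp2, of the box H/ACA particles that convert uridine to pseudouridine (NCBIM37 chr11:51433237-51437216, plus strand), was at 16.4, 20.7, 34.7 and 38.3 CPM in iSCs, 32.6, 61.2, 33.4 and 60.8 in dSCs and 81.3, 121, 118 and 134 in bSCs. Its rise of 2.05 in bSCs was the highest value of the 42 genes (1.27 to 2.83, adjusted p = 0.00235). Fbl, the methyltransferase fibrillarin of the box C/D particles, rose by 1.67 (adjusted p = 0.0197). The partners of these proteins had values of 0.75 for Nop56, 1.17 for Nop58, 0.90 for Dkc1 and 0.52 for Gar1, and none passed. Dkc1 was without a count in bSC pool 1 and at 165 CPM in bSC pool 5.

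Of the 8 large subunit factors, 4 rose from iSCs to bSCs. Pes1 and Bop1, which work in 1 complex with Wdr12, rose by 1.65 (adjusted p = 0.00582) and 1.75 (adjusted p = 0.00808). Pes1 was at 31.3, 49.5, 28.2 and 34.5 CPM in iSCs and 90.7, 109, 115 and 137 in bSCs, and Bop1 at 18.1, 27, 14.9 and 17.5 and at 48.5, 77.8, 42.5 and 91.5. Neither gene overlapped between the groups. For Wdr12, the third protein of the complex, 3 bSC libraries were at 54.7 to 58.9 CPM and the other at 19.9, within the iSC range of 13.6 to 25.6, and its difference of 1.27 did not pass (adjusted p = 0.0704). Rrs1, which brings the 5S particle into the large subunit, rose by 1.84 (adjusted p = 0.0465), and Gnl3, the nucleolar GTPase nucleostemin, by 0.99 (adjusted p = 0.0477). The calls of Rrs1 and Gnl3 were lost in 15 and 13 of 18 other settings. Nop2, Nop16 and Ebna1bp2 had values of 1.10, 0.82 and 0.54 and did not pass.

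No gene of small subunit assembly passed a pooled test. The 9 values from iSCs to bSCs ran from -0.50 for Nop14 to 1.79 for Rrp12, and from dSCs to bSCs from -0.31 for Utp20 to 1.88 for Rrp12. Rrp12 was at 1.06 to 11.2 CPM in iSCs and at 14.1 to 31.3 in bSCs, which left an interval of -0.96 to 4.54. Rrp9, Rrp12, Nob1 and Tsr1 had every bSC library above every dSC library. Of the RNA polymerase I subunits, Polr1b had the same separation and a log2 difference of 2.32 between bSCs and dSCs (0.33 to 4.31, adjusted p = 0.156), whereas Polr1a and Polr1c were at -0.38 and -0.29. Of the other MYC targets, Srm and Eif4e rose from iSCs to bSCs, by 1.48 (adjusted p = 0.00445) and 1.36 (adjusted p = 0.00858), while Odc1 (ornithine decarboxylase) and Cad (the first enzymes of pyrimidine synthesis) were at 0.46 and 0.42. Pa2g4 also rose, by 1.10 (adjusted p = 0.0308).

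Related genes that are not among the 42 were tallied from longer lists. Over all genes tested, 2.63% passed as higher in dSCs than in iSCs and 7.24% in bSCs than in iSCs. In bSCs against dSCs, 2.31% passed as higher and 3.11% as lower. Of 108 other ribosome biogenesis genes tested, 0 passed in dSCs against iSCs (median 0.05) and 9 were higher in bSCs than in iSCs (median 0.44). In bSCs against dSCs 3 were higher (median 0.47), namely Pno1 (1.45), Imp4 (1.14) and Wdr18 (1.09). The 9 and the 3 of 108 lay near the shares of all genes. The 37 tested genes of MYC target metabolism and translation were higher in bSCs than in dSCs in 13 cases, with a median of 0.98, among them Ran (1.77), which drives nuclear transport, and Gart (1.62), a purine synthesis enzyme. The cytosolic ribosomal proteins differed in pattern: of 75 tested, 23 were already higher in dSCs than in iSCs, 61 were higher in bSCs than in iSCs, and 5 were higher in bSCs than in dSCs, with medians of 1.16, 1.70 and 0.57. Of 12 proliferation genes, 7, 11 and 3 were higher in the same order of comparisons. Of the 11 other network genes tested, Mxd3 was higher in bSCs than in iSCs (1.54) and Trrap lower in bSCs than in dSCs (-1.32). Of the 14 macrophage genes, 3 were higher in dSCs than in iSCs, and all had values below 0 in bSCs against dSCs (median -1.22, 0 passed).

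In the single nerves, the difference between bSCs and dSCs was not detected. Of the 42 genes, 30 passed the count minimum of 100 counts in at least 85% of libraries, and 0 of these passed at any of days 4, 6, 8 and 10, or for the mean of those days, by edgeR. Over all 7171 genes, 0%, 0.0139%, 0%, 0.0139% and 0.112% passed. In simulated counts, the day 6 fit recovered 17 of 200 genes with a 4-fold change, and the fit of the mean 167. The count of 0 on day 6 therefore cannot exclude such changes. The genes that passed in the pooled nerves differed by 1.12 to 1.61 on the log2 scale, which is less than 4-fold. Changes of that size were not simulated, and those planted for the mean were equal on all days. The count of 0 for the mean therefore cannot exclude changes of the pooled size. By day, 1, 1, 0 and 1 of the 30 genes had an unadjusted p under 0.05, and for the mean 1 had (Npm1). The median of the 30 was -0.08, 0.22, 0.04 and 0.28 by day and 0.17 for the mean, with 19 above 0 in the mean. With edgeR's own filter all 42 genes were tested, and again 0 passed between the regions. Of the 12 genes below the count minimum, 5 were network genes, and Mycn was at 0 to 4.50 CPM in single-nerve iSCs and reached 32.6 in a day 6 bSC library. The interaction of day and region gave 0 of the 30 genes, 0 at an unadjusted p under 0.05 and 0 by DESeq2. By edgeR 0 of all 7171 genes passed it, so this count is not particular to the 30 genes.

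The values of the single nerves are set beside those of the pooled nerves. The mean log2 difference of Myc over days 4 to 10 was -0.23 (-1.17 to 0.71), below the 1.36 of the pooled nerves. At day 6, Myc was at 39.0, 37.2 and 59.8 CPM in bSCs and at 50.1, 46.3 and 38.5 in dSCs, and the regions overlapped. Nop16 had a mean difference of 0.24 (-0.32 to 0.80), where the pooled value was 1.61, and was at 76, 26.1 and 33.2 CPM in day 6 bSCs and 64.0, 70.1 and 50.9 in dSCs. Npm1 was at 0.42 (0.03 to 0.80, adjusted p = 0.620; pooled 0.79), Srm at 0.37 (-0.08 to 0.82; pooled 1.26) and Nhp2 at 0.65 (-0.17 to 1.46; pooled 1.28). No test was made between the experiments, which differ in the number of mice per library and also in marker levels. In iSCs the median of Sox10 was 352 CPM in pooled and 35.1 in single nerves. At day 6 the fibroblast and perineurial genes summed to 35948 to 46382 CPM in single-nerve bSCs and 25502 to 34077 in dSCs. In the pooled nerves the order was reversed (13292 to 26924 and 29423 to 43220). Medians of the macrophage and proliferation sums had the same order in both. The part of these differences was not tested.

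When the animal was used as a block (10 pairs of regions), the single nerves had 3 of the 30 genes lower in bSCs for the mean of days 4 to 10, Max (-1.93), Nop2 (-1.73) and Tsr1 (-1.09), where 5.79% of all genes were lower. The same 3 were lower at day 10 (-7.15, -6.25 and -4.53; 5.72% of all genes), while 0 passed at days 4, 6 and 8. The day 10 values rest on 1 pair, in which bSC replicate 3 held Max, Nop2 and Tsr1 at 0.376, 0.517 and 2.02 CPM. Without this pair, the means of days 4, 6 and 8 were -0.19, -0.23 and 0.06, and 0 of the 30 genes and 0 of all 7171 passed (1 of the 30 at an unadjusted p under 0.05), so the calls for the mean also rest on it. Leaving out the near-identical day 4 libraries gave 2 of 30 for the mean and 3 for day 10.

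**Figure D3:**
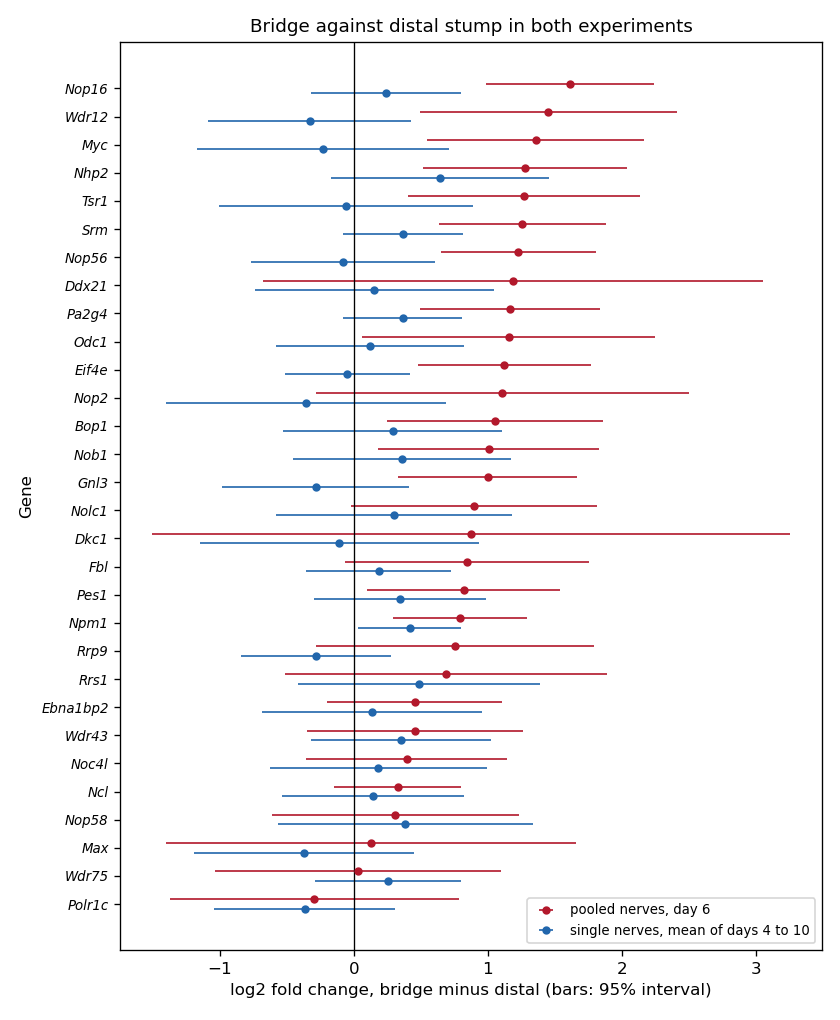
Log2 difference of bSCs minus dSCs with its 95% interval for each of the 30 genes tested in both experiments, from the pooled nerves at day 6 and as the mean of days 4 to 10 in the single nerves. Most pooled values lie to the right of 0, and the single-nerve values scatter around 0 from -0.37 to 0.65.

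In the time course, the values of dSCs against iSCs were highest on day 2, when 28 of the 30 genes had values above those of iSCs, with a median of 1.08 on the log2 scale against -0.03 over all genes, and 2 passed, Pa2g4 and Srm (1.00% of all genes passed, 0.655% as higher). Pa2g4 was at 83.0, 24.6, 65.0, 78.4 and 56.1 CPM in iSCs and at 288, 186 and 211 in day 2 dSCs, a difference of 1.89 (adjusted p = 0.00855). Srm was at 59.9, 99.7, 33.1, 66.2 and 93.1 CPM in iSCs and at 237, 183 and 226 on day 2, a difference of 1.61 (adjusted p = 0.0311). For both, all day 2 libraries were above all iSC libraries, as they were for 8 of the 30 genes (4.24% of all genes), the others being Npm1, Fbl, Nop56, Rrs1, Bop1 and Gnl3. Without the 4 shallow libraries, of which 1 is a day 2 and 2 are iSC libraries, neither gene passed (Pa2g4 1.61, adjusted p = 0.0572, and Srm 1.71, adjusted p = 0.0802), while the median was 0.97 and 32 of the 34 genes then tested were above 0.

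On the same day the proliferation genes summed to 775 to 1112 CPM and the macrophage genes to 4828 to 7630, against 214 to 383 and 346 to 1547 in iSCs, and their part in these values was not tested.

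On day 1 the median was 0.73 with 27 of 30 genes above 0, and 0 passed (0.153% of all genes), with 3 at an unadjusted p under 0.05. From day 4 on, the medians were 0.29, 0.19, 0.23 and 0.34. These medians and that of day 1 include the shallow libraries. On day 4 Pa2g4 was higher by 1.27 (adjusted p = 0.0484, with 4.74% of all genes passing and 2.84% as higher), a call lost without the shallow or without the near-identical libraries, and on days 6, 8 and 10, 0 genes passed (1.62%, 0.711% and 0.683% of all genes), with 1, 0 and 1 at an unadjusted p under 0.05. In bSCs, Srm was higher than in iSCs on day 4 (1.35, adjusted p = 0.0411, with 4.06% of all genes passing and 2.47% as higher) and Pa2g4 on day 6 (1.5, adjusted p = 0.0228, with 3.54% and 1.94%) and day 10 (1.45, adjusted p = 0.0325, with 2.52% and 1.46%), and 0 genes passed on day 8 (0.683%; 1 at an unadjusted p under 0.05). With all libraries, Pa2g4 was thus above iSCs at some point in both regions of the single nerves and in the bSCs of the pooled nerves. Its calls in single-nerve dSCs, on days 2 and 4, were both lost without the shallow libraries.

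A contrast of early (days 1 and 2) with late dSCs (days 4 to 10) was added after these levels had been seen. In it, 4 of the 30 genes were higher early, Nhp2 (2.19), Npm1 (0.95), Srm (1.02) and Eif4e (0.90), and 29 had values above 0 with a median of 0.53, against 6.62% of all genes passing, 4.99% as higher early, and a median of -0.04. Npm1 was at 374, 381 and 258 CPM on day 1, at 575, 515 and 572 on day 2, and between 147 and 325 on the later days. Nhp2 was at 434 CPM in the shallow day 2 library and at 99.0 and 146 in the others of that day, and its highest iSC level, 159, was also in a shallow library. Without 1 of the shallow dSC libraries of these days, whichever it was, 0 genes passed. Without all 4 shallow libraries 1 gene passed, Ncl (0.90, adjusted p = 0.0429). With the letter (A, B or C) in the deposited name of each library's counts as a covariate, 0 genes passed. Cytosolic ribosomal proteins were higher early in 27 of 73 cases, with a median of 1.71, and without the shallow libraries in 0 of 73, with a median of 0.42.

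**Figure D4:**
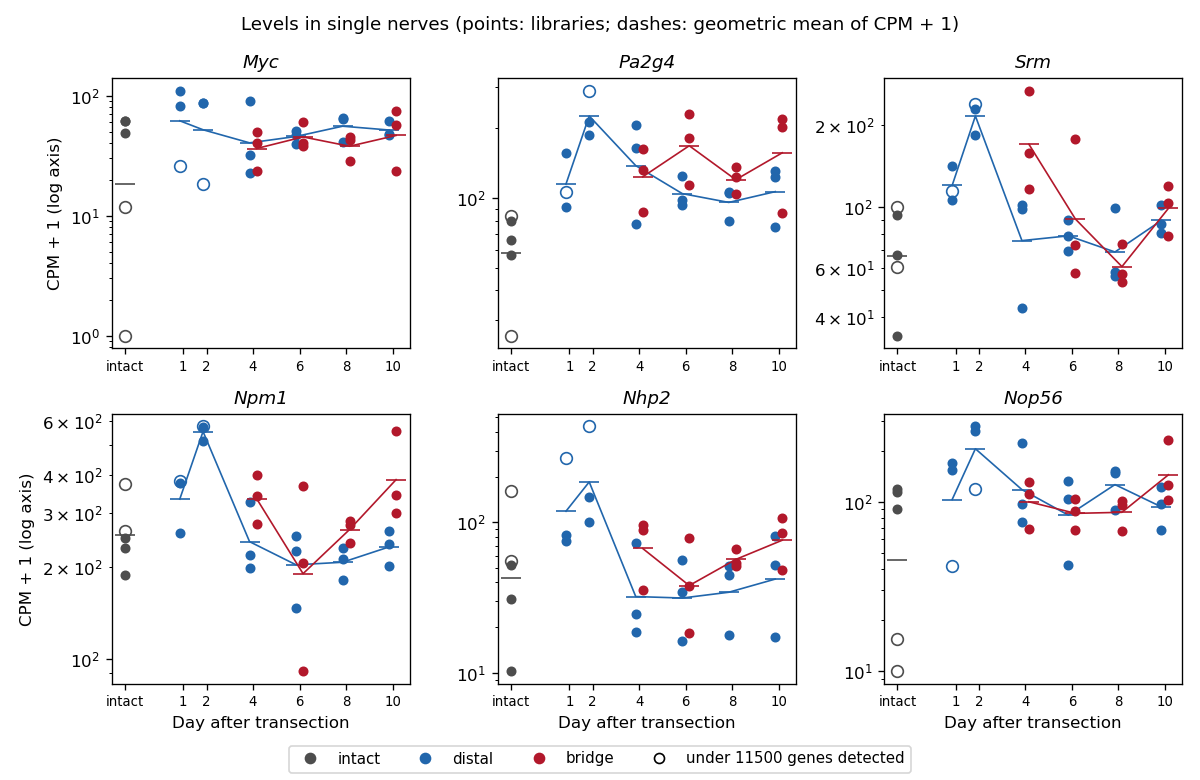
Level as CPM + 1 on a log axis against day after the cut for 6 genes, with 1 point per single-nerve library (iSCs drawn left of day 1, open circles for the 4 shallow libraries) and lines through the geometric group means of dSCs and bSCs. Within dSCs the means of Pa2g4, Srm, Npm1, Nhp2 and Nop56 are highest on day 2, and from day 4 on the dSC and bSC points overlap for most days.

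The level of Myc in each library was then set against that of the 35 genes outside the network, taken as their mean log2 CPM. In the pooled nerves this mean was 4.90 ± 0.163 in iSCs, 4.99 ± 0.220 in dSCs and 5.70 ± 0.466 in bSCs (SD, n = 4 each). Across the 12 libraries it had Pearson's r = 0.60 and Spearman's rho = 0.62 with log2 Myc (r = 0.66 without the 2 libraries farthest from the median of Myc), but with group means removed r was -0.04 and rho 0.03. Within the groups of 4 libraries no relation of this mean with Myc was thus seen. Genes without a count lower the mean, and there were 2 in bSC pool 1, 1 in bSC pool 3 and 1 in dSC pool 2. Between groups, mean log2 Myc was 4.99 in iSCs, 4.58 in dSCs and 5.97 in bSCs. The order of iSCs and dSCs was therefore not that of the mean of the 35 genes. Single genes followed Myc to different degrees, from r = -0.44 for Utp20 to 0.83 for Nop2, 0.81 for Nop56 and 0.79 for Nob1, with 28 of 35 above 0. The points share library preparation and depth, and no test was applied to these correlations.

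Across the 35 single-nerve libraries r was 0.72 and rho 0.38, and r fell to 0.42 without the 2 farthest libraries. Both are shallow iSC libraries, in which Myc was at 0 and 10.7 CPM and the other iSC libraries at 47.6 to 60.1. Without the 4 shallow libraries r was 0.37 and rho 0.20 (n = 31), and with group means removed 0.03 and -0.07. The libraries were also split by the letters, whose meaning the labels do not give, with the 4 shallow libraries, all of letter A, kept. Within the letters r was 0.74 in 19 libraries (A), 0.46 in 7 (B) and 0.61 in 9 (C). With group means removed it was 0.14, 0.23 and 0.43. Without the 2 farthest libraries of each letter, r was 0.38, -0.10 and 0.71, and with group means removed 0.49, 0.25 and -0.48. With all 35 libraries the value with group means removed had been 0.69, so the relation within groups was not seen without the shallow libraries.

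The same dependence was seen in a test of each gene's slope on log2 Myc within groups. Of 29 genes tested, 9 rose with Myc in the single nerves, Nop2 (0.83 per doubling of Myc), Nob1 (0.61), Nop56 (0.45), Pes1 (0.42), Ncl (0.34), Nop58, Nolc1, Bop1 and Wdr43, while 30.5% of all 7170 genes passed in either direction and 19.1% as rising. Of 73 cytosolic ribosomal proteins, 38 fell with Myc, where 11.5% of all genes did, and 0 did without the shallow libraries. With the number of genes detected as a covariate 3 of the 29 genes passed, and without the shallow libraries 0 did, with Ncl then at -0.32. In the pooled nerves 0 of 41 genes passed by edgeR, as did 0 of all genes, with 4 of the 41 at an unadjusted p under 0.05. In simulated counts, the pooled fit recovered 0 of 200 genes made to follow Myc, so its count of 0 cannot decide the question.

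**Figure D5:**
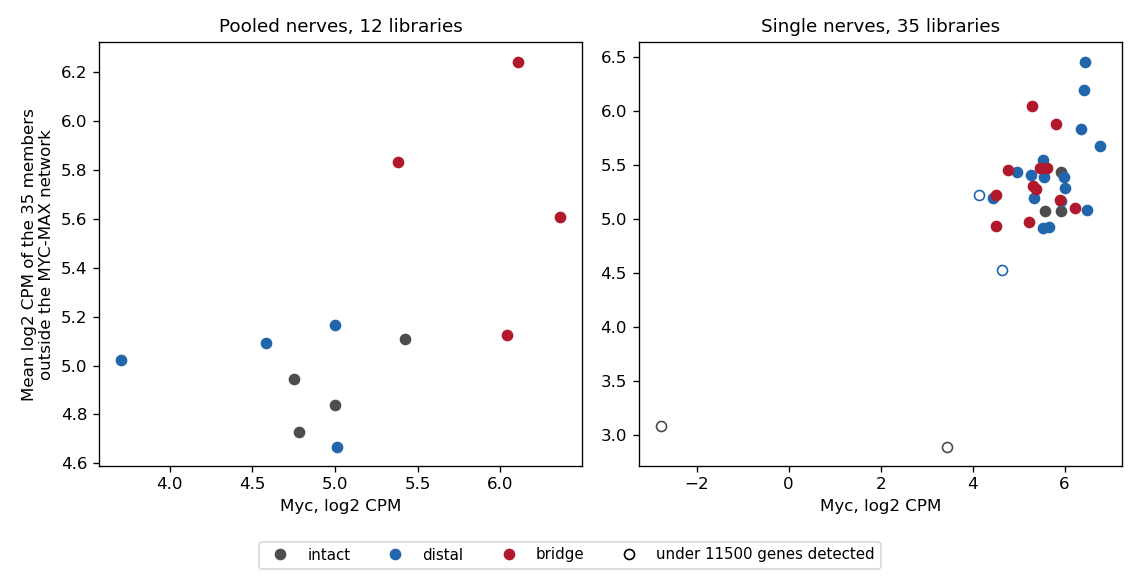
Mean log2 CPM of the 35 genes outside the MYC-MAX network against log2 CPM of Myc, 1 point per library, in the pooled nerves (12 libraries) and the single nerves (35 libraries, open circles for the 4 shallow ones). In the pooled panel the bSC points lie to the upper right, and in the single-nerve panel the lowest points on both axes are shallow iSC libraries.

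The genes whose log2 CPM was most like that of Myc over the 35 single-nerve libraries were Zcchc14 (r = 0.94), Rrp1 (0.93), Pfkp (0.93), Sf1 (0.91) and Camk2g (0.91). Without the shallow libraries these values were 0.48, 0.52, 0.35, 0.08 and 0.49, and over the 12 pooled libraries -0.25, -0.66, 0.27, -0.59 and -0.28.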

How the data were processed

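The authors sorted tdTomato+ cells, made libraries by Smart-seq2, aligned the reads with TopHat (2.0.11 in the submitters' processing notes) to the mouse build mm9, used HTSeq to count reads by gene. The deposited values are raw counts, a column per lane. Nothing in these values is normalized. The strand setting of the counting is not given, so reads of a gene and an antisense partner cannot be told apart.

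The lanes of a library were summed, and spike-ins and rows that name no gene were left out. Counts were tested in R 4.3.3 with edgeR 4.0.16 (TMM normalization, quasi-likelihood fit, Benjamini-Hochberg adjustment over all genes tested) in 1 fit per experiment. edgeR's filter kept 13751 genes in the 12 pooled libraries, and a minimum of 100 counts in at least 85% of the 35 single-nerve libraries, as in the study's methods, kept 7171. The study's methods name 4 intact single nerves, whereas the labels give 5, all of which were used here. A gene passed at an adjusted p under 0.05. Levels are CPM scaled by the TMM factors, and log2 levels carry a prior count of 2. Intervals are 95%. Median depth was 13527755 gene counts per pooled and 13149913 per single-nerve library. Several of the fits were run on simulated counts with planted changes, and some recovered few of them. Alternatives were DESeq2 1.42.0, its size factors, no filter, other filters, left-out libraries and covariates.

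The labels give dSC and bSC libraries of 1 pool or animal the same number. The deviations of same-pool libraries from their group means correlated at -0.129 to 0.0802 (10 pairs), and those of same-animal libraries at -0.294 to 0.664 (10 pairs), with 4 over 0.1, so the pairing comes from the labels and not from the counts. Numbers of calls with the block are given where they change, and blocked values for some genes only. Gene coordinates are of NCBIM37, the build that mm9 names. The genes and lists were chosen with earlier results of these data known. The genes named outside the 42 are, per list and comparison, those with the highest size of change among those that passed, and the 5 genes most correlated with Myc. The rat cultures of the series were not used here.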

Additional observations from a re-analysis of the deposited data

Results flagged for a closer look

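Within groups of 4 or 5 libraries, the highest or lowest library was set against the others for 31 genes named in the text, and 12 of 124 such groups (9.68%) had a library farther from the rest than Dixon's 95% limit allows. For independent, normally distributed values the limit is passed in about 1 in 20 groups. Here groups shared libraries, and Mycn was flagged against libraries without a count, so 9.68% cannot be set against that share. Of the 12 flagged groups, 5 lie in single-nerve iSCs, 4 of them in replicate 0, which is a shallow library. Bop1 was at 0 CPM there (21.5 to 38.1 in the others) and Ddx21 at 0.155 (12.9 to 48.7). Myc was at 0 (10.7 to 60.1) and Wdr12 at 5.89 (21.5 to 25.6). In replicate 3 of the same group Rrs1 was at 38.3 CPM and in the others at 18.9 to 23.1.

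In the pooled nerves, iSC pool 5 held Mxi1 at 13.1 CPM (73.9 to 87.6 in the others) and Rrp9 at 8.31 (24.3 to 27.9). In dSCs, pool 5 held Mxi1 at 20.7 (33.6 to 37.1) and Pa2g4 at 120.2 (78.7 to 82.9), and pool 3 held Mycn at 2.29 with no count in the others. In bSCs, pool 1 held Wdr12 at 19.9 (54.7 to 58.9) and pool 5 held Mycn at 2.19 with no count in the others. No explanation of these values was tested.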

How the results depend on the processing

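Numbers of the 42 (pooled) or 30 (single-nerve) genes that passed moved as follows. In the pooled nerves, dSCs against iSCs went from 2 to 1 with size factors, without a filter and with the pool as replicate block. For bSCs against iSCs the 12 calls became 7 with the replicate block, and for bSCs against dSCs the 5 became 13 with DESeq2, 3 without a filter, 3 with the number of lanes as covariate and 1 with the replicate block. Leaving out 1 library gave 1 to 2, 7 to 13 and 1 to 7, with 7 for bSCs against iSCs without iSC replicate 1 or 2, and 1 for bSCs against dSCs without bSC replicate 5 or dSC replicate 1 or 5.

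In the single nerves, the 2 calls of dSCs on day 2 became 5 with DESeq2, 1 without a filter, 1 with edgeR's filter and 0 without the shallow libraries (1 to 5 leaving out 1 library, with 5 without iSC replicate 1 and 1 without any day 2 library or iSC replicate 3 or 4). The single call of day 4 became 0 without a filter, with edgeR's filter, without the shallow and without the near-identical libraries (0 to 1), and day 6 had 0 to 1, with 1 without dSC day 6 replicate 3. For bSCs, the single calls became 0 without a filter on days 4, 6 and 10, 0 with edgeR's filter and with the library letter on day 4, and 2 without the shallow libraries on day 6 (0 to 1 each, with 0 on day 6 without bSC replicate 0 or 3 and on day 10 without bSC replicate 0 or 3 or iSC replicate 1 or 5). The paired fit by animal, a replicate block, gave 3 on day 10 and 3 for the mean, and 3 and 2 without the near-identical libraries, in place of 0, and 0 for the mean without the day 10 pair. The block changed no other count of the single nerves. The early against late calls went from 4 to 2 without a filter, 1 without the shallow libraries and 0 with the library letter (0 to 5, with 0 without dSC day 1 replicate 1 or day 2 replicate 0). The 9 slopes on Myc became 3 with the number of genes detected as covariate and 0 without the shallow libraries (7 to 12). Slopes that turned without them were Bop1 (-0.30), Ncl (-0.32), Nolc1 (-0.22) and Nop58 (-0.65), and Bop1 ranged from -0.15 (without iSC replicate 0) to 0.60 leaving out 1 library. The cause of these shifts was not tested. Alternatives on shallow libraries, near-identical libraries, the day 10 pair, lanes and the early and late days were chosen after seeing the data.

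Beyond these, the low counts of Mycn, Mxd1, Mnt, Rrp12 and the RNA polymerase I subunits limit what could be seen: from iSCs to bSCs the interval of Mycn ran from -8.71 to 1.23 and that of Polr1a from -3.22 to 1.88.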
